A study of Homo sapiens with 3 samples.

Results

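Distal H3K4me3 peaks without H3K27ac were H3K4me3 intervals that were chosen by 2 criteria. They shared no base with any H3K27ac peak, and they lay more than 3 kb from every annotated transcript start of any gene type. Of 18585 distinct H3K4me3 intervals in H2087, 2925 (15.7%, 95% interval 15.2 to 16.3) met both criteria. Of these, 176 lay near assembly gaps or centromeres and are described separately, which left 2749 intervals away from gaps.

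H2087 is an established human lung adenocarcinoma cell line, and the cells were untreated. Histone marks were mapped by chromatin immunoprecipitation with sequencing (ChIP-seq), with 1 library for trimethylated lysine 4 (H3K4me3) and 1 library for acetylated lysine 27 (H3K27ac) of histone H3, and an input library was not analysed here. The study used the peaks to choose sites inside histone modification regions. With n = 1 for each mark there is no replicate check and no test between conditions. Intervals given with shares cover counting error only, and they treat neighbouring peaks as independent. Peak lists hold no read counts and the depth is unknown, so a region without an H3K27ac peak cannot be told from one with too few reads. Promoters of 8 of 9 epithelial and lung adenocarcinoma markers carried H3K4me3, among them EPCAM, KRT7 and NKX2-1 and not the surfactant gene SFTPB. Of 6 markers of blood, endothelium and fibroblasts, only COL1A1 was marked.

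H3K4me3 is written by SET1 and MLL methyltransferase complexes and is best known at the starts of active genes and at unmethylated CpG islands, where CpG-binding subunits recruit the writers. H3K27ac is written by the acetyltransferases p300 and CBP at active promoters and enhancers. Enhancers away from starts are usually recognised by H3K4me1 together with H3K27ac, and CpG islands that lie away from annotated starts are known as orphan islands. Satellite DNA, tandem repeats that fill the centromeres and the regions next to them, is represented incompletely in the assembly used here.

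The sequences below show the kinds of DNA that the results turn on. They were read from the plus strand of the GRCh37 assembly, the same build as hg19, 5′ to 3′, and stretches longer than 300 bases were limited to the 300 bases around the centre. In the 3 intervals near gaps with the highest peak value, capitals mark the 5-base unit of classical satellites, GGAAT, or its reverse complement ATTCC. The pair from chromosome 16 was dense in this unit (30.0% and 25% of the bases shown), whereas the third held it at 1 place (1.67%).
chr16:46403558-46403790: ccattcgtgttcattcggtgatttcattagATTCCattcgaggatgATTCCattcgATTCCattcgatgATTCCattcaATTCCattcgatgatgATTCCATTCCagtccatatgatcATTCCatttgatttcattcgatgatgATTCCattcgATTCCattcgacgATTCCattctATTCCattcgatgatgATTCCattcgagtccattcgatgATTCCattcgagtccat
chr16:46404924-46405223: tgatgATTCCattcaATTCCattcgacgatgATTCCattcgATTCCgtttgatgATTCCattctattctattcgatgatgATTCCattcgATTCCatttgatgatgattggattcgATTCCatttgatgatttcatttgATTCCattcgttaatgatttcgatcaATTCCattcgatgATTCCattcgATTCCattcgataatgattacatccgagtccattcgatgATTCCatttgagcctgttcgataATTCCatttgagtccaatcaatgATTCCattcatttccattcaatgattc
chr7:61969069-61969368: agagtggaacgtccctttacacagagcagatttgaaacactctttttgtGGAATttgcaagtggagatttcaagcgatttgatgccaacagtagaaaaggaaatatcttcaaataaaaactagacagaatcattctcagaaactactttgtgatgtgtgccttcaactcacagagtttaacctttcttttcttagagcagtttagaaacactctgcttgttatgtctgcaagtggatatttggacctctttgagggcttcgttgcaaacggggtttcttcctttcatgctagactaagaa

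Away from gaps, a pair of intervals with high values that were not made mostly of repeated words is shown with each CG in capitals. The first lay between genes, with its nearest protein-coding start at ZBTB42. The second lay between genes and held no CG in the bases shown.
chr14:105293453-105293752: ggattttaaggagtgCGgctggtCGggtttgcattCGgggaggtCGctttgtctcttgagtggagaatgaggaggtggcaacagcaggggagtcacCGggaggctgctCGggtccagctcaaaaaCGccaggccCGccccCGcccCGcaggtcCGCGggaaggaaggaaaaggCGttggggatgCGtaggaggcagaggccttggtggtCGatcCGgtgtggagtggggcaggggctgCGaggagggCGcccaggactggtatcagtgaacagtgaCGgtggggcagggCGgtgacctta
chr12:58390999-58391298: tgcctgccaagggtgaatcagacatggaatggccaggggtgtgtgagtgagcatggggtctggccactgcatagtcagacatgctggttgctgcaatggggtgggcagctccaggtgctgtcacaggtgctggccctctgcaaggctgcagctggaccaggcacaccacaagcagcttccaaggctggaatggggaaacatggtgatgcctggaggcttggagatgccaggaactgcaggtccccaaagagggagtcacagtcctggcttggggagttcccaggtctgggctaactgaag

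The next pair also came from intervals away from gaps that were not made mostly of repeated words. The pair had the highest CpG ratio among those with a peak value of at least 5. They lay in exons of OTP, a homeobox factor of hypothalamic neurons, and of the long non-coding RNA gene RENO1, and again each CG is in capitals. CG made up 22.0% and 27.8% of the bases shown.
chr5:76925704-76926003: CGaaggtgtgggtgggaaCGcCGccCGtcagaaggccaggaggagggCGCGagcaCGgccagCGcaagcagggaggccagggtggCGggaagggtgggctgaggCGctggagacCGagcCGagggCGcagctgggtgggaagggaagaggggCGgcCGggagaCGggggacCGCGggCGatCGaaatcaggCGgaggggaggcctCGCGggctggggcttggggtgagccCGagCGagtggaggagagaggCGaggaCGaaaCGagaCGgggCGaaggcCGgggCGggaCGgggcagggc
chr17:79315333-79315598: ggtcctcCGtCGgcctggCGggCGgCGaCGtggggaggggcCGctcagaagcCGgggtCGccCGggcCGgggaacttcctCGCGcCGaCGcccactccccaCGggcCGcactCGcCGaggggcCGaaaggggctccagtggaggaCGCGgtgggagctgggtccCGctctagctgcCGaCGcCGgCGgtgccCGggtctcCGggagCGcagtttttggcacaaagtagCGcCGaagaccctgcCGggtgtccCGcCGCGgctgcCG

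A last sequence was added after the values were seen, because it had the highest value of all intervals away from gaps. It lay in an intron of HFM1, a meiotic DNA helicase gene. All of its words (100%) also occurred in an unplaced scaffold of the assembly that carries ribosomal RNA genes.
chr1:91852853-91853067: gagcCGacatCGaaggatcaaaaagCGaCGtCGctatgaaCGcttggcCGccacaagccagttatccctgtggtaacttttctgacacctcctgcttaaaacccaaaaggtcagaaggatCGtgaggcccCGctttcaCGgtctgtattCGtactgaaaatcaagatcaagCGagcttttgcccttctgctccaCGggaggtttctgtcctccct

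The peak value was read as the −log10 q of the deposited peak calls, and it grows with the confidence of a call. The intervals away from gaps had low values and were narrow. Their median value was 2.23 (interquartile range 1.67 to 2.98), and their median width was 237 bases (202 to 299). Distal intervals that overlapped H3K27ac had a median value of 2.75 and a median width of 270 bases. Promoter intervals without H3K27ac, which lay within 3 kb of a start, had medians of 2.97 and 298 bases. Because value and width come from the same peak list that chose the intervals, these are descriptions.

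Of the 2749 intervals, 112 (4.07%, 3.37 to 4.88) had a value of 5 or more, against 16.7% of all H3K4me3 intervals. The share was 10.2% in distal intervals with H3K27ac, a difference of −6.08 percentage points (−8.45 to −4.03). It was 14.2% in promoter intervals without H3K27ac, a difference of −10.2 (−11.2 to −9.12). High values were therefore less frequent among these intervals than in either class beside them. Distal intervals without H3K27ac made up 27.9% of the lowest of 10 equal parts of the H3K4me3 intervals away from gaps, ordered by value, and 2.53% of the highest part, with a decrease at each step between. Several summits were held by 19 intervals (0.691%), against 7.01% of all H3K4me3 intervals and 2.57% of distal intervals with H3K27ac. A width of 1 kb was reached by 4 (0.146%), against 2.25% and 0.490%. The width difference from distal intervals with H3K27ac was −0.344 percentage points, with an interval that included no difference (−1.11 to 0.0320).

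**Figure D1:**
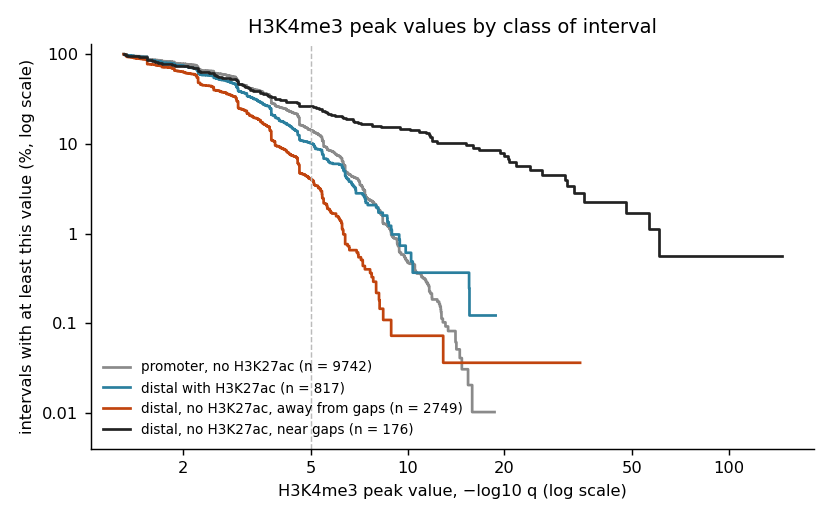
Share of intervals (%, log scale) with at least a given H3K4me3 peak value (−log10 q, log scale) in 4 classes of interval, with a dashed line at 5. Distal intervals without H3K27ac away from gaps form the lowest curve up to a value of 10, with 4.07% at or above 5, and those near gaps form the highest curve above 5, with 26.1%.

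The highest values away from gaps fell in very different DNA. The HFM1 intron interval printed above had a value of 34.4, and its words occurred a median of 3 times in the assembly. The next, chr16:33238978-33239549 (12.9), lay between genes and was also multi-copy, with 85.5% of its words repeated. It lay 2046 kb from a large run of unknown bases, outside the 1 Mb limit used for gaps. These were the only 2 intervals away from gaps with a value of at least 10.

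The third by value, chr14:105293310-105293895 (8.88), had CpG-island composition. Its nearest transcript start, 3613 bases away, was that of RPS26P49, a processed pseudogene. The nearest protein-coding start, 25.9 kb away, was that of ZBTB42, a zinc finger gene. The fifth, chr12:58452663-58452873 (8.18), lay between genes, and 83.3% of its words were repeated.

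The widest intervals were a different set. The widest, chr1:203140121-203141337 (1217 bases), overlapped an exon of MYBPH, a myosin-binding protein gene, and had a value of 1.64. An interval of 1212 bases lay in an intron of the non-coding gene LINC00836 (4.52), and one of 1164 bases with CpG-island composition lay between genes on chromosome 1 (5.11). The remaining 2 lay in introns of CTBP2, a transcriptional corepressor gene (1127 bases, 4.54), and HEATR5A (961 bases, 1.59). None of the 5 widest was among the 5 highest in value.

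Base composition was not used directly in the choice of the intervals, but the required distance from starts bears on the comparison with promoter intervals. CpG-island composition, meaning a GC content of at least 50% and a CpG observed to expected ratio of at least 0.6 in the 500 bases around the centre, was found in 249 of 2749 intervals (9.06%, 8.01 to 10.2), against 42.6% of all H3K4me3 intervals. Promoter intervals without H3K27ac had this composition in 50.4%, a difference of −41.4 percentage points (−42.8 to −39.9). Distal intervals with H3K27ac had it in 7.83%, a difference of 1.22 whose interval (−1.06 to 3.23) included no difference. Both distal classes were thus low beside the promoter class, and no difference between them was detectable. In 28586 windows placed every 100 kb along the genome the share was 1.22%, which was 7.84 percentage points (6.82 to 8.98) below the distal intervals without H3K27ac.

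The GC content of the intervals was above that of genome windows and below that of both classes beside them. Its median was 51.8% (interquartile range 47.0 to 57.2), against 60% in promoter intervals without H3K27ac and 53.2% in distal intervals with H3K27ac. The median CpG ratio was 0.253, against 0.629 and 0.242. Most of the intervals were therefore richer in GC than the genome windows, whose median was 40%, while their CpG ratio stayed well below that of promoters.

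**Figure D2:**
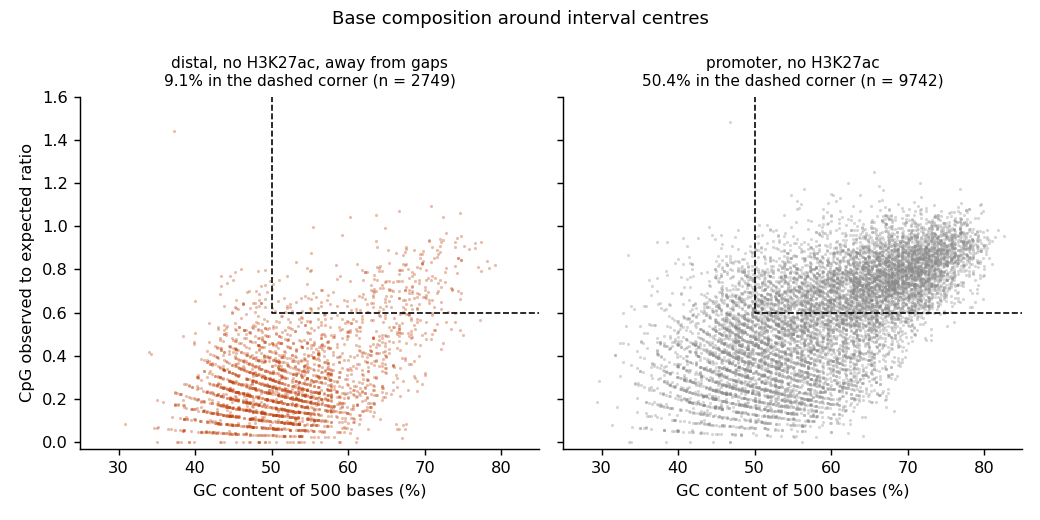
CpG observed to expected ratio against GC content (%) in the 500 bases around the centre, 1 point per interval, for distal intervals without H3K27ac away from gaps (left) and promoter intervals without H3K27ac (right). The dashed corner marks CpG-island composition, which holds 9.06% of the intervals on the left and 50.4% of those on the right.

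Repeated sequence was the second feature that the choice did not use. Multi-copy intervals were those in which 32-base words found more than once in the assembly, on either strand, exceeded 50% of all words. This held for 679 of 2749 intervals (24.7%, 23.1 to 26.4), against 9.69% of all H3K4me3 intervals. The share was 17.3% in distal intervals with H3K27ac, 7.44 percentage points lower (4.28 to 10.4), and 6.70% in promoter intervals without H3K27ac, 18.0 points lower (16.3 to 19.7). Multi-copy DNA was thus more frequent in distal intervals without H3K27ac than in either neighbouring class. It was also more frequent than in windows of 240 bases across the genome (13.2%), by 11.5 points (9.84 to 13.2). At the other end, 1332 intervals (48.5%) held no repeated word, against 64.7% of distal intervals with H3K27ac. How reads with several possible positions were treated is not given in the sources used here, and its part in these shares was not tested.

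Sorted by sequence, the intervals fell into 3 groups. The multi-copy group included 387 intervals whose words occurred a median of at least 10 times (a median of 54 over the group) and 292 with fewer occurrences. A second group of 215 intervals had CpG-island composition without being multi-copy. The remaining 1855 had neither feature.

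The CpG-island group stood apart from the others in value and position. Its median value was 2.92, against 2.23 both in the multi-copy group and in the group with neither feature. Values of at least 5 were reached by 26 of 215 intervals (12.1%), against 3.18% of the group with neither, a difference of 8.91 percentage points (5.10 to 14.0). The CpG-island group was more often exonic (23.7% against 6.20%, difference 17.5, 12.2 to 23.7) and less often inside any gene (45.6% against 63.7%, difference −18.1, −24.95 to −11.05). It also lay closer to starts, with 87.0% within 20 kb against 64.5%, a difference of 22.4 points (16.9 to 26.9). Multi-copy intervals, by contrast, were rarely exonic (1.91%) and had H3K27ac within 10 kb less often than the group with neither feature (26.8% against 38.0%, difference −11.1, −15.0 to −7.06).

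Several CpG-island intervals with values of at least 5 lay in or beside genes of known function. These were picked from that group after their values were seen. Other members lay between genes, some of them nearest to the start of a pseudogene or a microRNA gene. The OTP exon interval printed above had a value of 6.50, a CpG ratio of 1.06 in its 500 bases, and an H3K27ac peak no nearer than 137708 bases. An interval in an exon of STMN3, a neuronal microtubule regulator gene, had a value of 6.57 and lay 1363 bases from H3K27ac. One 3671 bases upstream of HIC1, a transcriptional repressor gene, reached 6.25, and one 5037 bases upstream of SOX4, a developmental transcription factor gene, reached 5.41 only 95 bases from H3K27ac. In an exon of CTF1, the cardiotrophin gene, the value was 5.36. The nearest start carried H3K4me3 within 1 kb for the STMN3, HIC1, SOX4 and CTF1 intervals, and not for the OTP interval. Proximity to H3K27ac thus ranged from under 100 bases to over 100 kb within this group.

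Short sequence motifs were searched on both strands in the 300 bases around each centre. The GC box bound by SP factors, GGGCGG, occurred in 17.2% of the intervals, in 18.1% of distal intervals with H3K27ac, in 42.1% of promoter intervals without H3K27ac and in 4.18% of genome windows. The difference from genome windows was 13.1 percentage points (11.7 to 14.5). The core of the CTCF site, CCACNAGG, occurred in 7.06%, against 8.69% in distal intervals with H3K27ac, 5.35% in promoter intervals and 3.21% in genome windows, a difference from the last of 3.84 points (2.92 to 4.88). GC-rich motifs were therefore more frequent in the intervals than along the genome.

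The opposite order was seen for the AP-1 site TGANTCA. It occurred in 5.71% of the intervals and in 9.50% of genome windows, a difference of −3.79 points (−4.66 to −2.80), while distal intervals with H3K27ac had it in 4.65%. The forkhead site TGTTTAC occurred in 3.42%, against 5.00% of genome windows (difference −1.58, −2.25 to −0.796) and 2.45% of distal intervals with H3K27ac. Neither motif differed detectably between the distal classes, with intervals of −0.793 to 2.61 for AP-1 and −0.470 to 2.11 for the forkhead site. Like the GC box, the ETS, CRE and NRF1 sites were more frequent in the intervals than in genome windows. The ETS site CCGGAAG occurred in 2.18% against 0.717%, a difference of 1.47 points (0.971 to 2.09). For the CRE site TGACGTCA the shares were 0.291% and 0.101% (difference 0.190, 0.0394 to 0.473). For the NRF1 site GCGCATGC they were 0.946% and 0.549% (difference 0.397, 0.0831 to 0.840). The differences were not adjusted for the base composition of the windows, and a match is a description of the letters only.

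Relative to genes, 1736 of the 2749 intervals (63.2%, 61.3 to 64.96) overlapped an annotated gene, against 85.9% of all H3K4me3 intervals. Of all 2749, 179 (6.51%) touched an exon, 1557 (56.6%) lay in an intron and 1013 (36.8%) lay between genes. Over all H3K4me3 intervals the same shares were 48.5%, 37.3% and 14.1%. The required distance from starts bears on this comparison. First introns of at least one transcript held 922 intervals (33.5%), against 45.4% of distal intervals with H3K27ac, a difference of −11.9 percentage points (−15.7 to −8.04). Intervals between genes were more frequent without H3K27ac than with it (36.8% against 30.7%, difference 6.13, 2.42 to 9.69).

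The nearest transcript start belonged to a protein-coding gene for 1253 intervals (45.6%), to a long non-coding RNA gene for 733 (26.7%), to a processed pseudogene for 347 (12.6%) and to a microRNA gene for 117 (4.26%). That start carried H3K4me3 within 1 kb for only 447 intervals (16.3%), against 27.5% for distal intervals with H3K27ac, a difference of −11.3 points (−14.7 to −8.00). The intervals were about evenly placed around it, with 46.0% on the upstream side. Another H3K4me3 interval within 1 kb was found for 246 (8.95%), against 22.8% of distal intervals with H3K27ac and 43.2% of promoter intervals without H3K27ac. The distance of over 3 kb from starts that the choice required bears on the comparison with promoter intervals, which is a description.

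The distance to the nearest start had a median of 12377 bases (interquartile range 6321 to 27674) and reached 359301 bases. The nearest interval inside the choice lay 3.003 kb from the start of ALKBH8 with a value of 3.72, and the next lay 3.004 kb from LACTB2 (2.86). Just outside it were intervals 2.99 kb from RFFL (2.23) and 2.99 kb from ZNF7 (3.30).

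Some features changed with distance and others did not. CpG-island composition was found in 12.3% of the 462 intervals up to 5 kb from a start, in 12.1% of the 693 from 5 to 10 kb and in 10.98% of the 665 from 10 to 20 kb. It then dropped to 4.59% of the 567 from 20 to 50 kb, 2.40% of the 250 from 50 to 100 kb and 2.68% of the 112 farther away. Split at 20 kb, the shares were 11.8% and 3.77%, a difference of 7.99 points (5.99 to 9.87). Values of at least 5 followed the same order, with 5.11% within 20 kb and 2.05% beyond, a difference of 3.06 (1.61 to 4.39).

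The multi-copy share moved little up to 100 kb, between 23.1% and 25.2% in each class of distance, and was 39.3% (30.2 to 49.0) in the 112 intervals beyond 100 kb. Split at 20 kb, it differed by −2.20 points, with an interval of −5.69 to 1.19 that included no difference. The split at 20 kb was chosen after the classes of distance had been seen. The share with H3K27ac within 10 kb fell through all classes, from 54.8% to 2.68%.

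**Figure D3:**
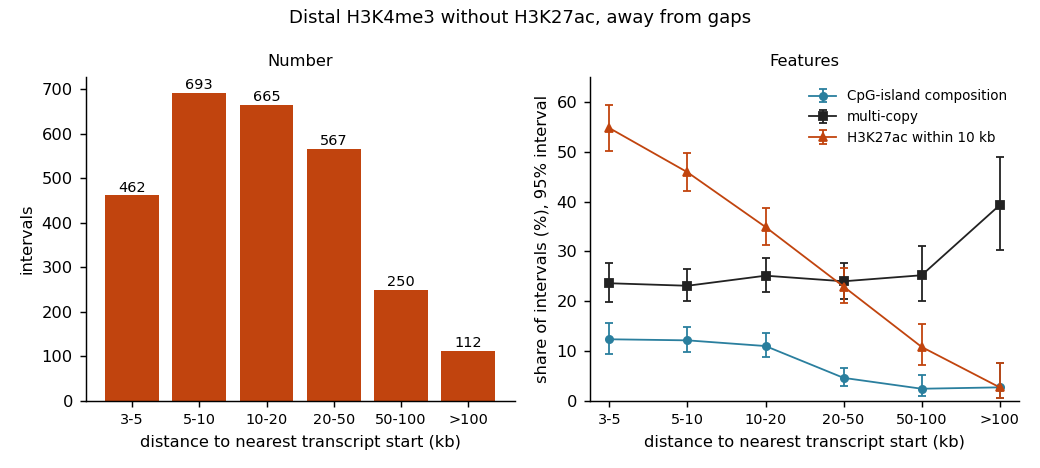
Number of distal intervals without H3K27ac away from gaps (left, bars) and the shares with CpG-island composition, multi-copy sequence or an H3K27ac peak within 10 kb (right, %, bars show 95% Clopper-Pearson intervals) by distance to the nearest transcript start in kb. The CpG-island share is 10.98% or more up to 20 kb and at most 4.59% beyond, and the multi-copy share is highest beyond 100 kb at 39.3%.

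Although the choice required no shared base with H3K27ac, many intervals lay beside it. The median distance to the nearest H3K27ac peak was 32602 bases (interquartile range 3513 to 262618), and the smallest was 9 bases. Within 1 kb of H3K27ac lay 397 intervals (14.4%), and within 10 kb lay 963 (35.0%), against 51.7% of promoter intervals without H3K27ac. At the far end, 1209 intervals (43.98%) had no H3K27ac peak within 50 kb, against 25.6%. The intervals therefore ranged from the flanks of acetylated sites to regions with no acetylated site nearby.

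The 397 intervals within 1 kb differed from the remaining ones. Of them, 69 (17.4%, 13.8 to 21.5) had an H3K27ac peak within 1 kb on both sides. Only 12.1% were multi-copy, against 26.8% of the intervals farther away, a difference of −14.7 percentage points (−18.1 to −10.8). Values of at least 5 were reached by 7.30% against 3.53%, a difference of 3.78 (1.45 to 6.84). The difference in CpG-island composition, 6.55% against 9.48%, had an interval that included no difference (−5.33 to 0.152). The median value of the H3K27ac peaks next to them was 2.82, against 2.65 over all H3K27ac peaks.

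The intervals were spread over 1375 windows of 1 Mb, of which 666 held a single interval and 84 held at least 5. The 5 windows with the most are given here. The window chr12:58000001-59000000, which includes CDK4 and OS9, held 15 intervals, of which 8 were multi-copy, within 60 H3K4me3 and 75 H3K27ac intervals in all. The window chr9:140000001-141000000, which includes CACNA1B and EXD3, held 10 among 60 H3K4me3 intervals, none of the 10 multi-copy. Windows with 9 each were chr11:122000001-123000000 at MIR100HG, chr14:32000001-33000000 at NUBPL and ARHGAP5, and chr5:1000001-2000000 at LPCAT1 and NKD2. They held 20, 19 and 35 H3K4me3 intervals in all. Over the genome the intervals made up 14.8% of H3K4me3 intervals, and the ranking by count was not adjusted for the H3K4me3 total of a window. All 5 windows also held between 36 and 78 H3K27ac peaks. Copy number of the cell line at these windows was not analysed here.

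By chromosome, the density averaged 0.962 intervals per Mb of known sequence. It was highest on chromosome 14 (1.78, exact Poisson 95% interval 1.51 to 2.08), chromosome 5 (1.56, 1.38 to 1.75) and chromosome 22 (1.49, 1.11 to 1.95). It was lowest on Y, with 0 intervals away from gaps and 7 near them, on X (0.0662, 10 intervals) and on chromosome 18 (0.188, 14 intervals). Those chromosomes were also low in H3K4me3 of any kind, with 7 intervals on Y, 50 on X and 68 on 18. The shares that follow are of all H3K4me3 intervals of the chromosome, those near gaps included. The intervals made up 20% on X (10.0 to 33.7) and 20.6% on 18 (11.7 to 32.1). They made up 18.2% on 14 (15.7 to 20.9) and 20.9% on 5 (18.7 to 23.2). On chromosome 22 the share was 13.4% (10.2 to 17.2), against 14.8% over all chromosomes. On Y all 7 H3K4me3 intervals lay near gaps, so no share away from gaps could be read there. The 95% intervals of the shares on X, 18 and 22 included the average of 14.8%, while those on 14 and 5 lay above it.

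**Figure D4:**
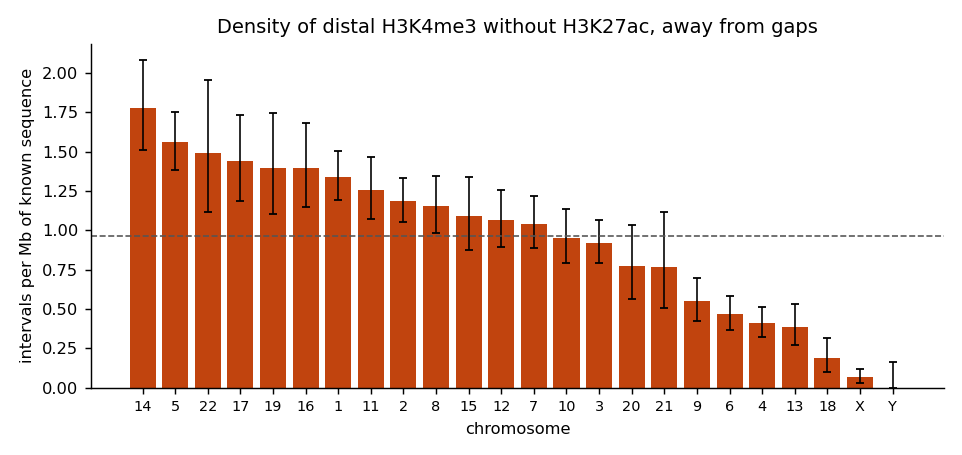
Distal H3K4me3 intervals without H3K27ac away from gaps, per Mb of known sequence, for each chromosome, with exact Poisson 95% intervals as bars and the genome average of 0.962 as a dashed line. Chromosome 14 is highest at 1.78, X is at 0.0662, and Y holds none.

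The intervals fell inside 1544 genes, of which 286 held at least 2, 70 at least 3 and 9 at least 5. TAFA5, which encodes a secreted chemokine-like protein of the nervous system, held the most, with 9 intervals among its 10 H3K4me3 intervals. That was 2.49 per 100 kb, against 0.0962 along the genome. The ranking by count was not adjusted for gene length or for the number of H3K4me3 intervals in a gene. Shorter genes with fewer intervals could be denser, such as ANO8 with 3 intervals and 25.8 per 100 kb. The values at TAFA5 were low, from 1.55 to 2.97, and the gene held no H3K27ac peak, the nearest to any of the 9 lying 658 kb away.

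MIR100HG, a non-coding gene that hosts microRNAs of the miR-100, let-7 and miR-125 families, held 8 intervals with values from 1.34 to 5.11. It held 12 H3K4me3 intervals in all. It differed from TAFA5 in carrying 28 H3K27ac peaks. Its nearest interval lay 39 bases from one of them, or 0.039 kb.

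A tie at 6 intervals joined 4 genes of contrasting kind. CTNNA2, an alpha-catenin of neurons, and TMEM132D, a neural membrane protein gene, held no H3K27ac, and neither had a marked start. Their values reached 3.46 and 3.30, and their densities were 0.410 and 0.721 intervals per 100 kb. Each held 7 H3K4me3 intervals in all. LINC-PINT, a non-coding gene induced by p53, held 12 H3K4me3 intervals in all and 10 H3K27ac peaks, and 25 of its 40 annotated starts were marked. PVT1, the non-coding neighbour of MYC, held 55 H3K4me3 intervals in all and 149 H3K27ac peaks, and each of its 6 lay within 0.880 kb of H3K27ac. Over the genome the intervals made up 14.8% of H3K4me3 intervals, a larger share than the 6 of 55 at PVT1. The genes with the most intervals thus included both acetylated loci and loci without H3K27ac in reach.

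Lung adenocarcinoma driver and lineage genes formed a list of 30. Of these, 9 (30.0%, 14.7 to 49.4) had an interval inside the gene or within 50 kb of a start, against 14.2% of 20136 protein-coding genes. The counts were not adjusted for gene length or for the number of annotated starts. The receptor gene EGFR held an interval of 528 bases in an intron (3.64), 15.9 kb from its nearest start and 3.38 kb from H3K27ac. Near ERBB2, another receptor of the same family, an interval with CpG-island composition (2.19) lay between genes, nearest to GRB7 and 0.269 kb from H3K27ac.

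The lineage factor NKX2-1 had 2 intervals near it, both in introns of ENSG00000283098, a long non-coding RNA gene whose span includes NKX2-1. The first also lay in an intron of SFTA3. The values of the 2 intervals were 4.58 and 1.64, and they lay 0.675 and 0.765 kb from H3K27ac. The cyclin gene CCND1 also had 2, both of CpG-island composition, with values of 2.22 and 1.71. Close to TERT, which encodes the catalytic subunit of telomerase, an interval (3.06) lay 69.2 kb from H3K27ac. Near the tumour suppressor STK11, 2 intervals (2.45 and 3.83) lay in introns of SBNO2.

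For the other 3 genes, the interval was multi-copy, as were 24.7% of the 2749 intervals. It lay in OS9 near the kinase gene CDK4 (2.26), in an intron of NFE2L2, the oxidative stress factor (1.499), and in an intron of the chromatin remodeller ARID1A (1.34). Between 60% and 70.6% of their words were repeated. None of the 12 intervals reached a value of 5, which 4.07% of the 2749 intervals reached. With so few intervals, this does not set them apart.

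The 176 intervals near gaps were unlike those away from them. Near meant within 1 Mb of a run of unknown bases of at least 1 Mb, which held for 141, or within 50 kb of another run of at least 1 kb, which held for 35. Their median value was 2.97 (interquartile range 1.89 to 5.22), and 46 (26.1%, 19.8 to 33.3) reached 5, against 4.07% away from gaps. Chromosome 16 contributed 17 of these 46, and without it the count was 29 of 154 (18.8%, 13.0 to 25.9). The share stayed above that away from gaps in both cases. Values of at least 10 were found in 26 intervals, 24 of them multi-copy, compared with 2 intervals away from gaps.

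Near gaps, 90 of the 176 (51.1%, 43.5 to 58.7) were multi-copy and 146 (83.0%) lay between genes. No H3K27ac peak lay within 50 kb of 145 (82.4%). CpG-island composition was found in 8 (4.55%, 1.98 to 8.76). Without chromosome 16, 70 of 154 (45.5%) were multi-copy. These intervals were thus mostly between genes and far from H3K27ac peaks, and about evenly divided between multi-copy and other sequence.

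Density of the GGAAT unit separated a subset. In 26 intervals, GGAAT or ATTCC covered at least 20% of the bases, and no interval away from gaps reached that share (0 of 2749, which allows a share of up to 0.109% by the limit of 3 counts and 0.134% by the exact interval). Of the 26, 15 lay between chr16:46385925 and chr16:46435543, beside the centromere, with values from 1.79 to 146 and a median of 20.7. On chromosome 10, 5 such intervals had values from 1.43 to 19.9. The rest lay on chromosomes 1 and Y, with values up to 6.82. The highest value of the 2925 distal intervals without H3K27ac therefore belonged to the chromosome 16 block.

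The 5 highest near gaps included 4 from this block. They were chr16:46403558-46403790 (146), chr16:46404844-46405304 (60.3), chr16:46388262-46388651 (47.8) and chr16:46405821-46406585 (35.4), the first pair being printed above. Compared with itself at every shift, the sequence of each matched best at a shift of 49 or 98 bases, with 60.9% to 85.2% identity. The remaining one of the 5, chr7:61968826-61969612 (56.4), matched best at a shift of 171 bases (56.7% identity), the known repeat length of the alpha satellite of centromeres. The next in value, chr2:90481693-90482298 (32.9), held no GGAAT, had a GC content of 65.4% and matched best at a shift of 26 bases, unlike either kind. Intervals beside the centromeres of chromosome 1 (30.9) and chromosome 6 (24.01) also matched best at 171 bases, with 45.3% and 60.5% identity. Peak values at satellite DNA can grow with copies that are absent from the assembly, and the part of such copies was not tested.

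**Figure D5:**
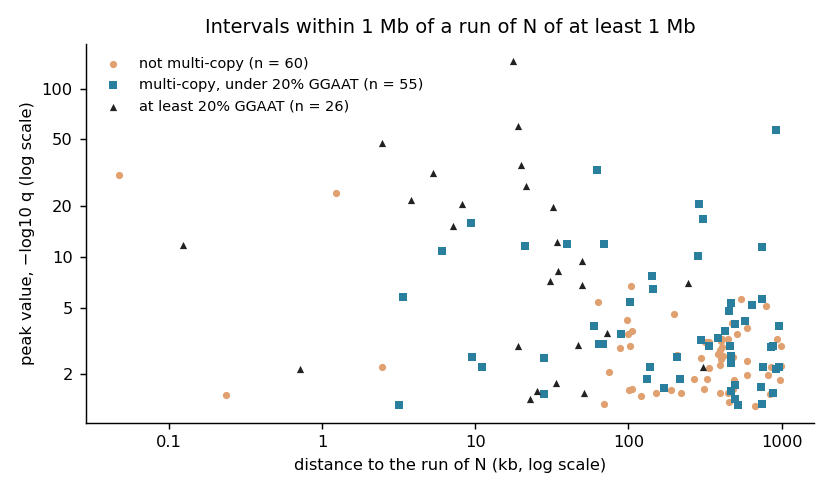
Peak value (−log10 q, log scale) against the distance in kb (log scale) to a run of unknown bases (N) of at least 1 Mb, for the 141 distal intervals without H3K27ac within 1 Mb of one. Triangles mark the 26 intervals with at least 20% GGAAT, which hold the highest value of 146, squares mark 55 multi-copy intervals with less GGAAT, and circles mark 60 intervals with neither feature.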

How the data were processed

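ChIP-seq of untreated H2087 cells gave 1 peak list per mark. Per the labels, the authors aligned reads to hg19 and called peaks with MACS2 2.1.0 per sample, with Bowtie 1.1.1, SAMtools 1.2 and Picard 1.118 named. The threshold and the treatment of duplicate reads are not given in the sources used here. The deposited value, read as the −log10 q of each summit from the numbers alone, ranks peaks within a list. Intervals listed once per summit were taken once, with their highest value. Read depth is unknown.

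Transcript starts came from GENCODE 44 mapped to GRCh37, which was also the source of sequence. Computation used Python 3.11.15, numpy 2.4.6, pandas 2.3.3 and scipy 1.17.1, and was tested on simulated intervals. CpG-island composition, 32-base words taken every 10 bases, and motifs were computed in each interval and in windows every 100 kb. Shares carry Clopper-Pearson and differences Newcombe 95% intervals. Each mark was 1 group of 1 library.

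The members and lists were chosen with earlier results of these data known. Named items were the 5 highest values and the 5 widest intervals away from gaps, the 5 highest near gaps, the 3 leading genes (ties kept), the 3 chromosomes with most and fewest per Mb, the 5 leading windows of 1 Mb and the 2 intervals nearest the 3 kb limit on each side. Sequences shown were the 3 highest near gaps and the 3 highest elsewhere that were not multi-copy, plus those described as added. Also shown were the 2 of highest CpG ratio among intervals elsewhere that were not multi-copy and had values of at least 5. One interval that these rules name is not reported here. The marker PECAM1 was not analysed here. Alternatives were other distances to starts, protein-coding starts alone, a wider exclusion around H3K27ac, higher values, summits counted separately, and other definitions of gaps, composition and repeats.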

Additional observations from a re-analysis of the deposited data

How the results depend on the processing

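The 10 values that were recomputed were the counts, shares, medians and the difference in CpG-island share of the opening comparisons. Of 86 values recomputed under the alternatives, 48 stayed within the tolerance, 36 moved and 2 changed sign. The tolerance was a factor of 1.5 for counts of intervals and the 95% interval of the reported value for shares, medians and the difference. The sign changed for the difference in CpG-island share between distal intervals without and with H3K27ac, which was −1.33 percentage points with a distance over 10 kb from starts and −0.239 with protein-coding starts alone, against 1.22. The cause was not tested. With over 5 kb from starts, 13.2% of the H3K4me3 intervals were chosen, 60.6% of them were in genes, and the median distance to H3K27ac was 44.4 kb. With over 10 kb, the values were 1594 intervals away from gaps, 9.34% chosen, 56.8% in genes, 6.78% of CpG-island composition and 77.3 kb. With protein-coding starts alone, 20.2% were chosen, 66.6% were in genes, 14.4% had CpG-island composition and 22.6% were multi-copy. With no H3K27ac within 1 kb, 13.6% were chosen, 26.8% were multi-copy and the median distance was 55.4 kb. With values of at least 5, there were 112 intervals away from gaps and 46 near them, 5.09% of the H3K4me3 intervals at that value, with a median width of 291.5 bases, a median value of 5.61, 59.8% in genes, 25% of CpG-island composition and 8.60 kb to H3K27ac. In the upper part of the list by median value, the counts were 814 and 89 (9.27%), with a median width of 258 bases, a median value of 3.72, 14.5% of CpG-island composition and 28.2 kb. Counted per summit, 14.7% were chosen. With gaps widened to 5 Mb, 348 lay near them. CpG-island composition was 11.6% in the interval itself and 6.91% under stricter limits, and 40.6% were multi-copy with a limit of 20% of words. Leaving out chromosome 16, chosen after seeing the data, gave 18.8% of intervals near gaps with a value of at least 5.

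No paired analysis was possible because there was a single library for either mark, and there was no replicate to leave out. The unknown depth limits what the absence of an H3K27ac peak shows.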
